A study of Mus musculus with 12 samples.

Results

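The response difference at day 10 between a serum-free arm and a serum arm of mouse embryonic stem (ES) cell cultures was measured on 8 of the 12 one-colour arrays of the series. It is the day 10 minus day 0 change in the serum-free arm, minus the same change in the fetal bovine serum (FBS) arm, taken within each cell line and averaged over the lines. The 4 groups, with 1 array of each line, are the serum-free arm at day 10, the serum-free arm at day 0, the FBS arm at day 10 and the FBS arm at day 0. The lines carry the GFP constructs Stella-GFP and Dazl-GFP, whose names point to Dppa3, known as Stella, and to Dazl, both genes of germ cells; each is 1 line. Every culture had γ-irradiated feeder fibroblasts beneath it and LIF (leukemia inhibitory factor) in its medium, which was serum-free B27N2 or DMEM with 15% FBS. The 2i treatment named in the labels consists of 1 µM PD0325901, which inhibits MEK, plus 5 µM Kenpaullone, which inhibits GSK3β. The labels call the whole serum-free arm, day 0 included, the 2i condition. They do not say whether FBS cells received the inhibitors after day 0, nor what serum-free cells had received by day 0. They call the lines independent but give no repeat culture of either. With the line as a block in the fit, p-values rest on how the 2 lines depart from a constant offset across groups. Part of that spread may be technical.

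ES cells move between a naive state, held by LIF together with MEK and GSK3 inhibition and marked by factors such as Nanog, Klf4 and Tfcp2l1, and primed states marked by Fgf5 and by the de novo DNA methyltransferases. MEK drives ERK, whose activity is read from feedback genes of the Sprouty and dual-specificity phosphatase families. ATF4, a transcription factor made in larger amounts when amino acids are short or proteins misfold, drives genes of amino acid supply and of stress signalling.

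Between 64% and 74.4% of spots lay well above background on the 12 arrays, and 0 spots were saturated. All 5 ES cell markers checked (Pou5f1, Sox2, Nanog, Zfp42 and Sall4) were above background on every array, and so were all 19 fibroblast and feeder markers tested. The arrays lay on 3 slides, 4 on each. Serum-free Stella-GFP at both days shared slide 3, and FBS Dazl-GFP at both days shared slide 1, so only the difference between these 2 changes, which crosses the lines and has no test, is a value within slides. For the Dazl-GFP line in serum-free medium and the Stella-GFP line in FBS, day and slide cannot be told apart. Levels are given as log2 signal relative to the array's 75th percentile, and changes and differences are in log2 units.

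Of 20791 genes tested with limma, 15 (0.0721%) had a response difference past an adjusted p of 0.05 (Benjamini-Hochberg). The difference was positive for 5 of them (0.024% of all genes tested) and negative for 10 (0.0481%); with quantile normalization the split was 12 and 55, and with the authors' table as input it was 40 and 170. At an unadjusted p under 0.05 there were 4074 genes (19.6%), 2423 positive (11.7%) and 1651 negative (7.94%), and 419 passed an adjusted p of 0.10. By limma in each arm, 1113 genes (5.35%) changed in the serum-free arm by day 10, 456 of them rising (2.19%) and 657 falling (3.16%; 269 and 882 with the authors' table as input), and 2687 genes (12.9%) changed in the FBS arm, 1562 rising (7.51%) and 1125 falling (5.41%). Without the Dazl-GFP FBS day 10 array the counts were 804 in the serum-free arm and 668 in the FBS arm. The SD of the changes over all genes, with all arrays in the fit, was 0.68 in the serum-free arm and 0.79 in the FBS arm. Changes of 554 genes passed in the same direction in both arms, which is 49.8% of the serum-free calls and 20.6% of the FBS calls. The median difference over all genes was 0.07, with a median standard error (SE) of 0.35, and it was -0.17 in the authors' table and 0.46 after normexp background correction. The count of 15 rests on the spread pooled over all 12 arrays: it was 0 with the slide as a block (3385 genes at an unadjusted p under 0.05) and 0 with only the 8 arrays in the fit (3621 genes), and it ranged from 0 to 48 as single arrays were left out. It was 0 without either serum-free day 3 array, the Stella-GFP serum-free day 0 array, the Dazl-GFP serum-free day 10 array or the Dazl-GFP FBS day 10 array (2805 to 3927 genes at an unadjusted p under 0.05), and 48 without the Dazl-GFP FBS day 0 array.

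Of the 15 genes, 13 had a day 10 change past the threshold in the FBS arm and 3 in the serum-free arm. The lines had the same sign of the difference for all 15, as the plot of the lines against each other shows, and for 66% of all genes tested. The test itself favours genes on which the lines agree, so the agreement among the 15 is no separate support.

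**Figure D1:**
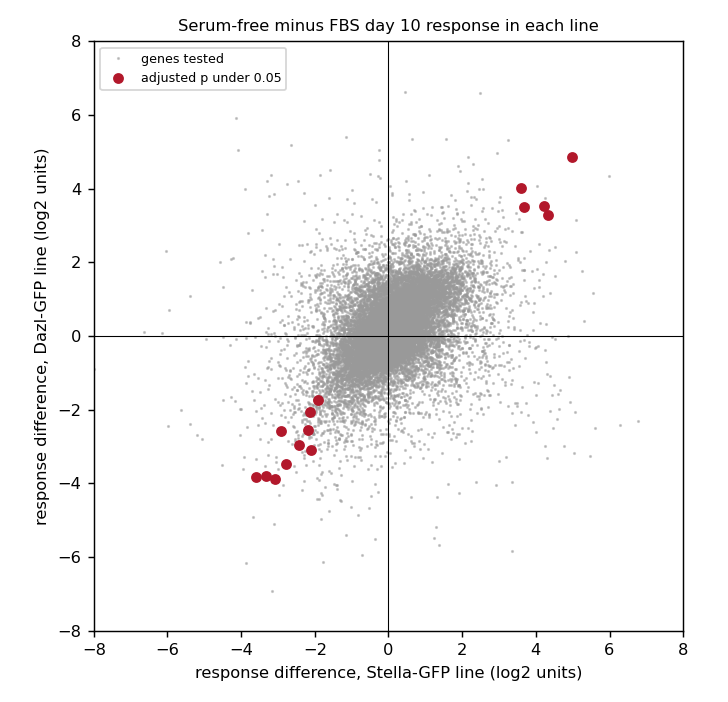
Response difference of each gene in the Stella-GFP line (x axis, log2 units) and in the Dazl-GFP line (y axis, log2 units). Grey points are the genes tested and red points the 15 genes past an adjusted p of 0.05. The red points lie in the corners where both lines have the same sign, which the test favours. Across all genes Pearson's r was 0.38, a description in which both axes share slides and normalization.

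Rxrg had the highest difference among the called genes. It encodes the gamma form of the retinoid X receptor, a nuclear receptor that pairs with retinoic acid receptors. In the Stella-GFP and Dazl-GFP lines its level was -2.07 and -2.05 at day 10 and -0.80 and -1.13 at day 0 in the serum-free arm, against -4.12 and -4.87 at day 10 and 2.13 and 0.90 at day 0 in the FBS arm. FBS cells at day 0 were the highest and FBS cells at day 10 the lowest, and the serum-free arrays lay between them without overlap. The serum-free change was -1.10 ± 0.30 (n = 2 lines) and did not pass (limma adjusted p = 0.0805). Here and below, ± gives the SE from the limma fit, with the spread pooled over all arrays in the fit. It is not the SE of the 2 line values, which were -1.27 and -0.92 for this change. In the FBS arm Rxrg fell by 6.02 on the log2 scale, and the difference was 4.92 ± 0.43 (limma adjusted p = 0.0274). Taken at day 3 in place of day 10, the difference was 1.39 and -0.14 in the lines, and Rxrg was below its day 0 level in both arms then, at -4.80 and -5.58 in the serum-free arm and -3.27 and -3.40 in the FBS arm.

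Wnt8a, a secreted Wnt ligand, had levels of -4.14 and -5.09 at day 10 and -4.25 and -5.29 at day 0 in serum-free cells. In FBS cells it was not well above background at day 10 and lay at -2.09 and -3.97 at day 0. Its FBS level at day 10 was at least 7.98-fold lower than at day 0, which makes the response difference at least 8.86-fold (fitted 3.80, limma adjusted p = 0.0488). Here the floor of a dim group is the lowest signal among spots well above background on the same array, and such a bound replaces the fitted value. Gpm6b, a membrane glycoprotein of the proteolipid family best known from neurons, had a change of -0.58 in serum-free cells and fell by 4.18 in FBS cells, a difference of 3.60 ± 0.39 (limma adjusted p = 0.0446). Gpm6b has 3 other probes, none well above background on any array, and 2 of them had the opposite sign. Figla, an oocyte transcription factor, passed as well (limma adjusted p = 0.00979) but has no bound: it was above background only in FBS cells at day 0 and was at least 3.18-fold lower there at day 10. Figla, with no bound, and LOC436089, a locus number in place of a gene symbol with a difference of at least 5.24-fold, fall outside the rule for naming genes and are named to complete the 5, chosen after their values were seen.

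Serpinb1a, an intracellular inhibitor of serine proteases, had the lowest difference among the called genes. Its level was -1.48 and -1.41 at day 10 and -1.38 and -1.11 at day 0 in serum-free cells, against -0.03 and 0.52 at day 10 and -3.53 and -3.00 at day 0 in FBS cells. The serum-free arrays lay close together, between the FBS arrays of day 10 above them and those of day 0 below. The difference was -3.71 ± 0.28 (limma adjusted p = 0.0195), and it was already -3.75 and -2.91 in the Stella-GFP and Dazl-GFP lines at day 3. Its paralog Serpinb1c had a difference of -3.48 ± 0.39 (limma adjusted p = 0.0446), with 1 of 2 FBS day 0 arrays above background. Near-identical copies can share signal, so these may not be separate measurements.

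Padi4, which converts arginine to citrulline in histones and other proteins, lay at -0.31 and -0.10 at day 10 and at 0.03 and 0.55 at day 0 in serum-free cells, against 1.21 and 2.02 at day 10 and -1.24 and -0.82 at day 0 in FBS cells. Padi4 rose by 2.64 in FBS cells, with a serum-free change of -0.49 that did not pass, and the difference was -3.13 ± 0.28 (limma adjusted p = 0.0274). For Pitx1, a homeobox factor of hindlimb and pituitary, and Qpct, the enzyme that forms pyroglutamate at protein ends, the serum-free arrays likewise lay between the FBS day 10 and FBS day 0 arrays. Pitx1 rose by 3.42 in FBS cells, with a serum-free change of -0.15 and a difference of -3.57. Qpct rose by 3.07 in FBS cells, with a serum-free change of 0.70 and a difference of -2.37, but its difference at day 3 was 0.23 and 0.35. S100a13, a small calcium-binding protein, lay at -0.21 and -1.04 at day 10 and at -0.11 and -0.83 at day 0 in serum-free cells, against 2.31 and 1.82 at day 10 and -0.50 and -0.55 at day 0 in FBS cells. Only its FBS day 10 arrays stood apart, and the difference was -2.75. A probe without a gene symbol had a difference of -2.70.

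The remaining 3 negative genes fell in the serum-free arm. Hrh1, the histamine H1 receptor, was at -4.44 and -4.42 at day 10 and at -2.14 and -1.51 at day 0 in serum-free cells, against -2.06 and -1.38 at day 10 and -1.86 and -1.57 at day 0 in FBS cells. Only the serum-free day 10 arrays stood apart, and the difference was -2.60 ± 0.29 (limma adjusted p = 0.0446). At day 3 its difference was already -1.88 and -2.10 in the lines. As3mt, which methylates arsenic, followed the same pattern: it fell by 1.62 in serum-free cells, with an FBS change of 0.21. At day 3 its difference was 0.15 and 0.25 in the lines. Catsperz, a subunit of the sperm calcium channel, fell by 0.78 in serum-free cells and rose by 1.31 in FBS cells.

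**Figure D2:**
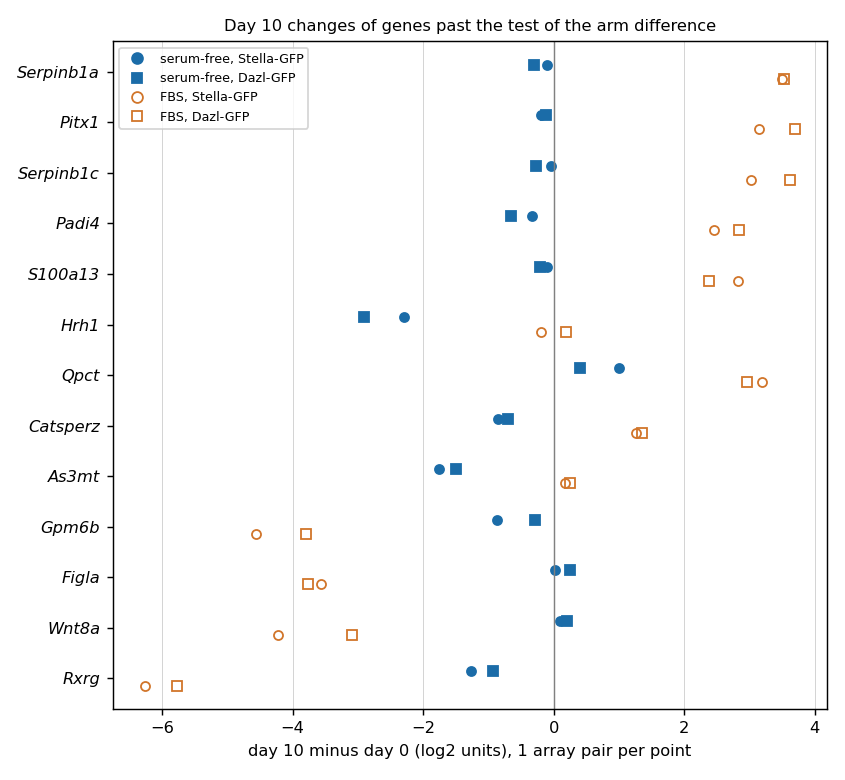
Day 10 minus day 0 change in log2 units for 13 named genes past the test of the response difference, with filled blue marks for the serum-free arm and open orange marks for the FBS arm (circles, Stella-GFP; squares, Dazl-GFP). Each mark is 1 pair of arrays. For Hrh1 and As3mt the serum-free marks lie away from 0, for Catsperz both arms do, and for the others the FBS marks lie farther from 0.

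In 9 genes both arms' changes passed but in opposite directions, and these genes were picked out after their values were seen. Besides Catsperz, 5 fell in serum-free cells and rose in FBS cells: Pga5, Gjb5, Vegfa, Lyrm1 and Ccdc82. Vegfa, the endothelial growth factor, lay at -2.34 and -2.15 at day 10 and at -1.31 and -0.81 at day 0 in serum-free cells, against 1.36 and 1.87 at day 10 and 0.11 and 1.09 at day 0 in FBS cells. Its difference was -2.20 ± 0.38 (limma adjusted p = 0.0663). Mfap4, Irgc1 and Gp1ba rose in serum-free cells and fell in FBS cells. The difference was 1.62 for Mfap4, at least 2.90-fold for Irgc1 and at least 1.52-fold for Gp1ba, each with an adjusted p between 0.05 and 0.10 in limma.

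Naive pluripotency genes moved mainly in the FBS arm. The members of this and the later lists were chosen with earlier results of these data known, so list counts and medians are descriptions. Of the 14 measured, 9 rose by day 10 in FBS cells (7.51% of all genes tested did) and 1 fell (5.41%). With limma 0 passed in serum-free cells (5.35%), where 4 rose at an unadjusted p under 0.05 (3295 of all 20791 genes tested). The median change was 0.25 in the serum-free arm and 1.23 in the FBS arm, and the median difference -0.88, against 0.07 over all genes tested. The difference was negative in both lines for 13 of 14 (6201 of all 20791 genes tested). With limma 0 of 14 passed the test of the difference, and 7 had an unadjusted p under 0.05, all negative (7.94% of all genes tested were negative at that level).

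Nanog, a core factor of the naive state, lay at 2.93 and 3.35 at day 10 and at 2.53 and 2.66 at day 0 in serum-free cells, against 3.62 and 4.09 at day 10 and 2.34 and 2.45 at day 0 in FBS cells. The FBS day 10 arrays were the highest and the day 0 arrays of both arms lay close together. Its difference was -0.91 ± 0.26 (limma adjusted p = 0.163). Tbx3, a T-box factor that sustains self-renewal, had the lowest difference of the list, -2.10 ± 0.59 (limma adjusted p = 0.16), with a rise of 3.17 in FBS cells and a change of 1.07 in serum-free cells. Zfp42 (Rex1), a zinc-finger marker of naive cells, had a difference of -0.92 ± 0.20: at day 10 its levels were 7.29 and 6.48 in serum-free cells and 7.40 and 6.62 in FBS cells, while at day 0 they were 7.32 and 6.35 in serum-free cells and 6.44 and 5.62 in FBS cells. Within each line the FBS day 0 array of Zfp42 was thus the lowest, and the other 3 lay close together. Tdgf1, the Nodal co-receptor, was the only member with a positive difference, 0.60.

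Primed and formative genes ran the other way. Of 14 measured, 7 fell in FBS cells (5.41% of all genes tested) and 3 in serum-free cells (3.16%), and the median difference was 0.74. With limma 0 passed the test of the difference, and 6 had an unadjusted p under 0.05, 5 positive (11.7% of all genes tested) and 1 negative (7.94%). A difference of at least 1 log2 unit in both lines was seen in 7 of the 14 (10.4% of all genes tested), 6 positive (6.71%) and 1 negative (3.66%). Etv4, an ETS factor downstream of ERK, and Cldn6, a tight-junction protein, fell in both arms, by 3.28 and 2.34 in serum-free cells and by 3.63 and 3.02 in FBS cells.

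Dnmt3b, a de novo DNA methyltransferase, lay at 4.14 and 4.29 at day 10 and at 4.35 and 4.02 at day 0 in serum-free cells, against 2.29 and 0.76 at day 10 and 5.07 and 4.47 at day 0 in FBS cells. Only the FBS day 10 arrays were low. The difference was 3.28 ± 0.50 (limma adjusted p = 0.0611). At day 3 Dnmt3b had been low in both arms, at 1.52 and 1.21 in serum-free cells and 1.96 and 1.65 in FBS cells. In the serum-free arm day 3 was thus the lowest of days 0, 3 and 10 in both lines.

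Fgf5, the growth factor that marks primed cells, had a like course, at -0.74 and -2.03 at day 10 and -0.21 and -1.96 at day 0 in serum-free cells, against -2.40 and -4.15 at day 10 and 1.68 and -0.90 at day 0 in FBS cells, and -2.83 and -4.74 at day 3 in serum-free cells. Its lines differed in level, so the arms overlap, but within each line the FBS day 10 array was the lowest of the 4. The difference was 3.37 ± 0.45 (limma adjusted p = 0.0611). Dnmt3a, the other de novo methyltransferase, had a difference of 2.33 ± 0.41 (limma adjusted p = 0.0677) and fell by 2.69 in FBS cells, with a serum-free change of -0.36. Its other probes gave 0.68 and 1.81. Its day 3 levels in serum-free cells were 1.94 and 0.75, against 2.01 and 1.48 at day 0. Nrp2, a semaphorin co-receptor, had the lowest difference of the list, -1.37, negative in both lines, and fell in both arms.

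**Figure D3:**
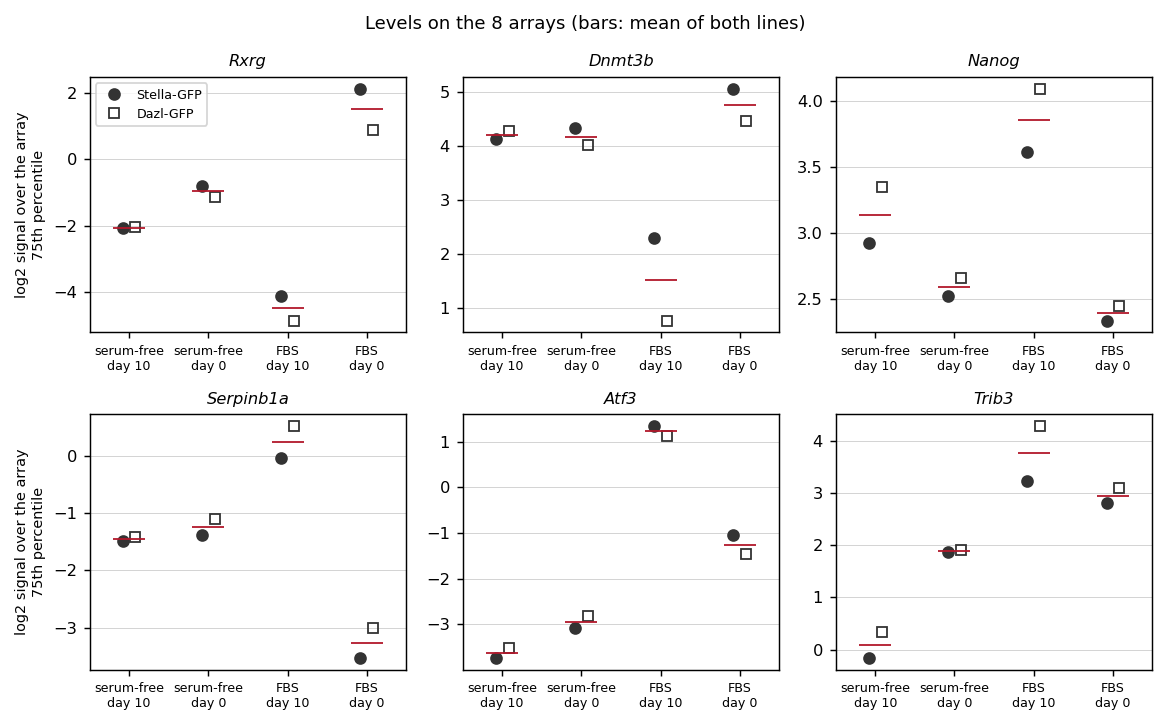
Levels of 6 genes on the 8 arrays, as log2 signal relative to the array's 75th percentile (y axis), by group (x axis); filled circles are Stella-GFP, open squares Dazl-GFP, and red bars the mean of both lines. For Rxrg and Dnmt3b the FBS day 10 arrays are the lowest and for Nanog, Serpinb1a, Atf3 and Trib3 the highest, while the serum-free arrays of day 10 and day 0 lie closer together in all but Trib3.

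Among the general pluripotency genes, Pou5f1, Sox2 and Sall4 had differences of 0.20, -0.06 and -0.12 and passed no test in either arm. For Pou5f1 the lines disagreed, at 1.16 in Stella-GFP and -0.76 in Dazl-GFP, and the sign turned under 6 alternatives with both lines in the fit. Utf1, Lin28a and Eras, which mark undifferentiated ES cells, had the highest differences, 2.40, 2.17 and 2.11 (limma adjusted p = 0.0995, 0.0901 and 0.0944). Each fell in FBS cells, by 3.06, 2.57 and 2.57, and each had a serum-free change between -0.66 and -0.40 that did not pass. Over the 12 genes measured, 7 fell in FBS cells (5.41% of all genes tested). With limma 0 passed in serum-free cells (5.35%), and 1 fell there at an unadjusted p under 0.05 (2135 of all 20791 genes tested). With limma 0 passed the test of the difference, and 4 were positive at an unadjusted p under 0.05 (11.7% of all genes tested).

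Of 15 targets and feedback genes of MEK-ERK signalling measured, 6 fell in serum-free cells (3.16% of all genes tested) and 9 in FBS cells (5.41%). The median change was -1.15 in the serum-free arm and -1.70 in the FBS arm, and the median difference 0.65. Spry4, a Sprouty feedback inhibitor, lay at -3.72 and -3.54 at day 10 and at -0.80 and -0.14 at day 0 in serum-free cells, against -5.40 and -5.40 at day 10 and -0.15 and 0.78 at day 0 in FBS cells. The FBS day 10 arrays were the lowest and the serum-free day 10 arrays the next, and the difference was 2.56 ± 0.41 (limma adjusted p = 0.0627).

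Dusp6, an ERK phosphatase, fell by 1.64 in serum-free cells and by 3.05 in FBS cells (difference 1.41 ± 0.53, limma adjusted p = 0.217). Phlda1 had the lowest difference, -1.58 ± 0.51 (limma adjusted p = 0.186): it fell by 1.64 in serum-free cells, with an FBS change of -0.06. With limma 0 of 15 passed the test of the difference, and 7 had an unadjusted p under 0.05, 6 positive (11.7% of all genes tested) and 1 negative (7.94%).

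**Figure D4:**
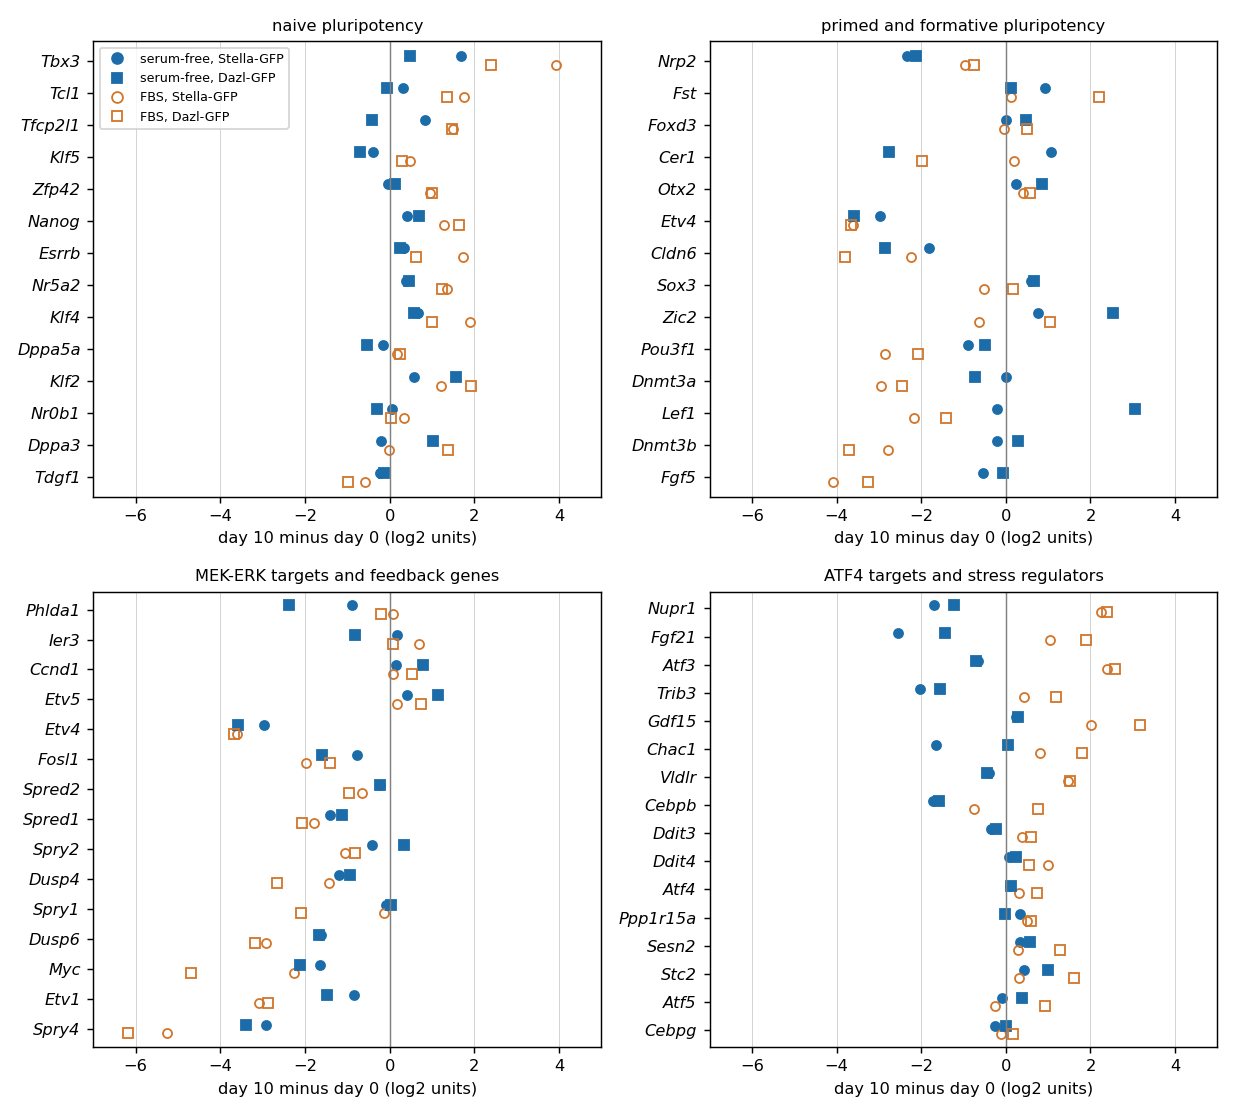
Day 10 minus day 0 change (x axis, log2 units) of each measured member of the lists of naive, primed and MEK-ERK genes and of ATF4 targets and stress regulators, with filled blue marks for the serum-free arm and open orange marks for the FBS arm (circles, Stella-GFP; squares, Dazl-GFP). FBS marks lie mostly right of the serum-free marks for naive genes (median difference -0.88) and ATF4 targets (-1.22), and mostly left of them for primed (0.74) and MEK-ERK genes (0.65).

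With the brightest probe of each gene, targets of ATF4 and stress regulators had a negative difference in 16 of 16 genes measured (45.3% of all genes tested). The difference was negative in both lines for 13 of these genes (6201 of all 20791 genes tested). These members were chosen with earlier results of these data known, so the counts describe the list and are no independent test. The median change was -0.21 in the serum-free arm and 0.79 in the FBS arm, and the median difference -1.22. In FBS cells 4 rose (7.51% of all genes tested), and in serum-free cells 2 fell (3.16%). With limma 0 of 16 passed the test of the difference, and 8 had an unadjusted p under 0.05, all negative (7.94% of all genes tested). Atf4 itself had a difference of -0.41 ± 0.29 (limma adjusted p = 0.475), and Ddit3 (CHOP), a stress factor downstream of it, -0.78 ± 0.59. A second probe of the list member Sesn2, above background on all 12 arrays, gave 0.57, against -0.33 from the probe used.

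Nupr1, a stress-induced chromatin protein, lay at 0.07 and -0.10 at day 10 and at 1.77 and 1.12 at day 0 in serum-free cells, against 3.81 and 4.87 at day 10 and 1.57 and 2.48 at day 0 in FBS cells. The serum-free day 10 arrays were the lowest and the FBS day 10 arrays the highest, and the difference was -3.78 ± 0.57 (limma adjusted p = 0.0611). Atf3, a stress-induced transcription factor, lay at -3.75 and -3.52 at day 10 and at -3.08 and -2.83 at day 0 in serum-free cells, against 1.34 and 1.12 at day 10 and -1.06 and -1.46 at day 0 in FBS cells. The arms did not overlap on either day, and the difference was -3.17 ± 0.45 (limma adjusted p = 0.0611).

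Trib3, a pseudokinase that dampens ATF4 output, lay at -0.16 and 0.35 at day 10 and at 1.87 and 1.91 at day 0 in serum-free cells, against 3.24 and 4.28 at day 10 and 2.81 and 3.09 at day 0 in FBS cells. Here the serum-free change was the larger part of the difference of -2.61 ± 0.34 (limma adjusted p = 0.0607), since Trib3 fell by 1.80 there and its FBS change of 0.81 did not pass. Gdf15, a secreted stress hormone, rose by 2.59 in FBS cells, with a change of 0.26 in serum-free cells. Chac1, which breaks down glutathione, had a difference of -2.10 ± 0.60 (limma adjusted p = 0.162) and passed in neither arm.

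Among amino acid transporters, 4 of 14 rose in FBS cells (7.51% of all genes tested) and 1 fell (5.41%), while 1 fell in serum-free cells (3.16%). The median difference was -0.75. Slc7a11, the cystine importer, was not well above background in serum-free cells on either day nor in FBS cells at day 0, and in FBS cells at day 10 it was at least 4.69-fold higher than at day 0. Slc1a1, a glutamate carrier, rose by 2.08 in FBS cells, and Slc7a1, a carrier of basic amino acids, by 1.06. A second Slc7a1 probe gave a difference of 0.36, against -1.19 from the probe used. Slc38a4, a neutral amino acid carrier from an imprinted locus, instead fell by 1.44 in serum-free cells. With limma 0 of 14 passed the test of the difference, and 8 had an unadjusted p under 0.05, 7 negative (7.94% of all genes tested) and 1 positive (11.7%).

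Enzymes of amino acid synthesis and one-carbon metabolism had a median difference of -0.50 over 16 genes, with 3 rising in FBS cells (7.51% of all genes tested). These were Asns, which makes asparagine, by 1.36, and the transaminases Gpt2 and Got1 by 1.14 and 0.62. With limma 0 passed the test of the difference, and 5 were negative at an unadjusted p under 0.05 (7.94% of all genes tested). The 20 cytosolic aminoacyl-tRNA synthetases, which charge tRNAs, had a median difference of -0.06, and with limma 0 passed in the difference or in either arm. At an unadjusted p under 0.05 the count was 0 for the difference (19.6% of all genes tested), 2 in the serum-free arm (both lower) and 3 in the FBS arm (2 higher, 1 lower). At that level, of all 20791 genes tested, 2135 were lower in the serum-free arm. In the FBS arm 3314 were higher and 2610 lower. Other probes of Aars, which charges alanine, gave differences from -1.47 to 1.62, so its single value of -0.24 depends on the probe.

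Promoter windows of these lists were searched for the composite C/EBP-ATF letters TGATGNAA, or TTNCATCA on the other strand, since ATF4 with C/EBP partners is known to bind such letters. The windows run from 250 bases before to 50 bases after the start of each gene (RefSeq, GRCm38.p6). A match was present for 3.11% of the 13244 tested genes with a window, for 6 of 16 ATF4 targets (37.5%) and, among list members with a window, for 3 of 10 transporters (30%), 3 of 14 synthesis enzymes (21.4%) and 5 of 13 tRNA synthetases (38.5%). The letters were about as frequent among the 13 synthetases with a window as among the ATF4 targets. The median difference of all 20 synthetases was -0.06. Whether the letters bear on the response was not tested. Of the ATF4 targets, Nupr1, Fgf21, Atf3, Trib3, Chac1 and Vldlr had a match. A match is a description of letters and not a site shown to be bound. The ATF4 list was drawn up as targets of that factor, so its higher share is no result of these data. Shown with the letters in capitals are the windows of 4 genes with a match that changed in an arm and had the lowest fitted differences among such genes of these lists, that of Slc7a11 resting on dim groups.
Nupr1 (chr7:126625421-126625720, minus strand): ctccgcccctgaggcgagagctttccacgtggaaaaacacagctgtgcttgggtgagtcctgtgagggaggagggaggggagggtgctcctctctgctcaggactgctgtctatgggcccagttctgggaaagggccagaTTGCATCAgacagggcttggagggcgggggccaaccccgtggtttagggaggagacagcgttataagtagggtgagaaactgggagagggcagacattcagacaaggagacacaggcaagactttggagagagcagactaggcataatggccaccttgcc
Atf3 (chr1:191183284-191183583, minus strand): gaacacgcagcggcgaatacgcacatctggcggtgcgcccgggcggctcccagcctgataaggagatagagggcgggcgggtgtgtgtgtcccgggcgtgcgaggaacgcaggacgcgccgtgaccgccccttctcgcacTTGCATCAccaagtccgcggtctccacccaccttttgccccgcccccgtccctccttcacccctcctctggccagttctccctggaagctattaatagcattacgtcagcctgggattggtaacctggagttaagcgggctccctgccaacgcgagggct
Trib3 (chr2:152344011-152344310, minus strand): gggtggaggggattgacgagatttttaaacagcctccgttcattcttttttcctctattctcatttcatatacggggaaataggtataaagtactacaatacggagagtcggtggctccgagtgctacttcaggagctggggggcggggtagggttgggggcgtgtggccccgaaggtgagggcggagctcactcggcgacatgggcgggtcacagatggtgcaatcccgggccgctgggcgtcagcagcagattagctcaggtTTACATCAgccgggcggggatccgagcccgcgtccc
Slc7a11 (chr3:50443564-50443863, minus strand): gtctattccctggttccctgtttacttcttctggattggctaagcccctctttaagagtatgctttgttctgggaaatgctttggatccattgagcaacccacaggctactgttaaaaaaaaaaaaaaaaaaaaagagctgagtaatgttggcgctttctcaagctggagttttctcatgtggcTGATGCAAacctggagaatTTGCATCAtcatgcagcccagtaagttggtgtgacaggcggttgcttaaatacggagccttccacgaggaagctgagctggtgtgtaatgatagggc

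Nupr1 and Atf3 hold 1 match 110 bases before the start, Trib3 holds 1 match after the start, and Slc7a11 holds 2 matches.

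Germ cell genes had a median difference of -0.66, with 18 of 21 negative (45.3% of all genes tested were). The median was -0.12 after normexp, -0.26 with normexp on repaired backgrounds (local backgrounds over 10 times the array median set to that median) and -0.92 to -0.40 without single arrays. In serum-free cells 7 fell (3.16% of all genes tested) and 1 rose (2.19%), and in FBS cells 4 fell (5.41%) and 2 rose (7.51%). Figla was the 1 member of 21 that passed the test of the difference (0.024% of all genes tested passed with a positive difference). Figla was above background only in FBS cells at day 0, so its difference has no bound. At an unadjusted p under 0.05 it was the 1 positive gene (11.7% of all genes tested) beside 4 negative ones (7.94%). Mov10l1, an RNA helicase of the piRNA pathway, fell by 1.84 in serum-free cells, with an FBS change of -0.46 (difference -1.38 ± 0.25, limma adjusted p = 0.0718). A second Mov10l1 probe, above background on 4 arrays, had changes of -1.20 in serum-free and -0.97 in FBS cells, a difference of -0.23. Stra8, which starts meiosis, fell in serum-free cells, and its difference was -1.40 in the Stella-GFP line and -4.05 in the Dazl-GFP line. Ddx4 (Vasa), a germ cell RNA helicase, and Piwil2, a piRNA-binding protein, fell in both arms.

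Dazl, a germ cell RNA-binding protein, lay at -2.29 and 0.90 at day 10 and at -2.68 and -1.01 at day 0 in serum-free cells, against -0.88 and 3.19 at day 10 and -1.94 and -0.79 at day 0 in FBS cells. The Dazl-GFP value was above the Stella-GFP value in each of the 4 groups, and in both lines the FBS day 10 array was the highest. Dazl rose by 2.52 in FBS cells, and the difference of -1.37 ± 0.88 did not pass (limma adjusted p = 0.43). That Dazl difference was -0.45 without the Dazl-GFP FBS day 10 array, -2.30 without the Stella-GFP FBS day 10 array and -3.59 within slides. Dppa3 (Stella) had a difference of -0.27 ± 0.77 (limma adjusted p = 0.883).

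Of the TET dioxygenases, which oxidise 5-methylcytosine, Tet2 lay at 0.88 and 1.56 at day 10 and at 1.31 and 1.72 at day 0 in serum-free cells, against 1.19 and 1.59 at day 10 and -0.24 and 0.52 at day 0 in FBS cells. The FBS day 0 arrays were the lowest within each line. Tet2 rose by 1.25 in FBS cells, and the difference was -1.54 ± 0.24 (limma adjusted p = 0.0614), with -1.36 and -0.81 from its other probes. Tet1 had a difference of 0.38 ± 0.34. Tet3 had -0.18 ± 0.59, and its other probes gave 0.67 and 1.16. Over 16 genes of DNA methylation and demethylation the median difference was 0.15, and Gadd45b, a stress-induced gene linked to demethylation, had the lowest value, -2.41 ± 0.45, rising by 2.80 in FBS cells.

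Primitive endoderm genes had a median difference of -1.23 over 13 genes. In serum-free cells 6 fell (3.16% of all genes tested) and 1 rose (2.19%), and in FBS cells 2 fell (5.41%) and 1 rose (7.51%). With limma 0 of 13 passed the test of the difference, and at an unadjusted p under 0.05 there were 1 positive (11.7% of all genes tested) and 4 negative genes (7.94%). The median difference was -0.24 after normexp, -0.39 with normexp on repaired backgrounds and -1.82 to -0.64 without single arrays. Gata6 and Sox7, transcription factors of that lineage, fell by 2.63 and 2.70 in serum-free cells, with FBS changes of -0.30 and -0.94, although other probes of Gata6 gave differences of -1.24 and 0.94, against -2.33 from the probe used. A second Sox7 probe, above background on 7 arrays, had a serum-free change of 0.60 and an FBS change of 2.17, the opposite sign in both arms. Apoe, a lipid carrier that is also made outside this lineage, rose in both arms. Sox17 had the lowest difference, -3.43 ± 0.67 (limma adjusted p = 0.0831), and its other probes gave -1.61, 0.06 and 0.12, the last 2 dim. The summed linear level of the list, Apoe included, was 116 and 93.5 at day 10 and 69.6 and 46.2 at day 0 in serum-free cells, against 120 and 80.6 at day 10 and 56.7 and 57.4 at day 0 in FBS cells. Within slides the median difference was -0.24. In such mixed cultures fewer cells of a type and less RNA per cell cannot be told apart.

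Basement membrane genes, which endoderm and fibroblasts also make, had a median difference of -0.93 over 9 genes (-0.14 within slides). Lama1, a laminin chain, lay at -3.43 and -3.26 at day 10 and at -1.41 and -0.02 at day 0 in serum-free cells, against -2.18 and -1.17 at day 10 and -2.73 and -1.46 at day 0 in FBS cells. Lama1 fell by 2.63 in serum-free cells, and the difference was -3.05 ± 0.44 (limma adjusted p = 0.0611). A second Lama1 probe gave -4.30, with an adjusted p of 0.0444 when all 41174 probes were tested with limma.

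The summed linear level of the fibroblast and feeder markers was 46.8 and 23.9 at day 10 and 50.2 and 42.9 at day 0 in serum-free cells, against 68.7 and 46.5 at day 10 and 47.8 and 53.5 at day 0 in FBS cells. The median difference over 19 genes was -0.78, and within slides it turned to 0.36. Members disagreed: Lox, which cross-links collagen, had -2.54, and Dcn, a matrix proteoglycan, 2.76. The part of feeder RNA in the other results was not tested. The 12 macrophage markers summed to 2.38 and 3.26 at day 10 and 3.89 and 3.46 at day 0 in serum-free cells, against 2.64 and 3.17 at day 10 and 2.96 and 9.07 at day 0 in FBS cells, with a median difference of -0.07.

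Interferon-response genes had a median difference of 0.54 over 20 genes, 1.53 within slides. Psmb8, an immunoproteasome subunit, lay at -2.99 and -4.15 at day 10 and at -2.71 and -3.13 at day 0 in serum-free cells, against -4.71 and -5.71 at day 10 and -1.79 and -2.14 at day 0 in FBS cells. Psmb8 fell by 3.24 in FBS cells (difference 2.60 ± 0.34, limma adjusted p = 0.0607). Bst2, a tether of viral particles, had a difference of 2.43 ± 0.36 (limma adjusted p = 0.0611) and fell by 1.62 in FBS cells. With limma 0 of 20 passed the test of the difference, and 5 had an unadjusted p under 0.05, all positive (11.7% of all genes tested).

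On the probe used for each gene, cell division genes had a median difference of -0.01 over 15 genes, with none above 0.28 or below -0.41. Their other probes ranged from -0.99 for Top2a to 0.81 for Ccne1, and the list median was -0.45 after normexp. Serum response and contractile genes had a median difference of 0.05 over 14 genes. Sterol synthesis genes had -0.29 over 19 genes and fatty acid synthesis genes -0.32 over 11. In the retinoid list the median was 0.73 over 13 genes (-0.06 within slides); Rarg, a retinoic acid receptor, fell by 1.21 in FBS cells, where Rxrg fell too. LIF-STAT3 targets had a median of -0.16 over 13 genes, but Socs3, the feedback inhibitor of that pathway, fell by 1.29 in serum-free cells, with an FBS change of -0.02 (difference -1.28 ± 0.21, limma adjusted p = 0.0627). Cyp1a1, an aryl hydrocarbon receptor target that metabolises foreign compounds, rose in both arms, at least 29-fold in serum-free cells and at least 22.4-fold in FBS cells.

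**Figure D5:**
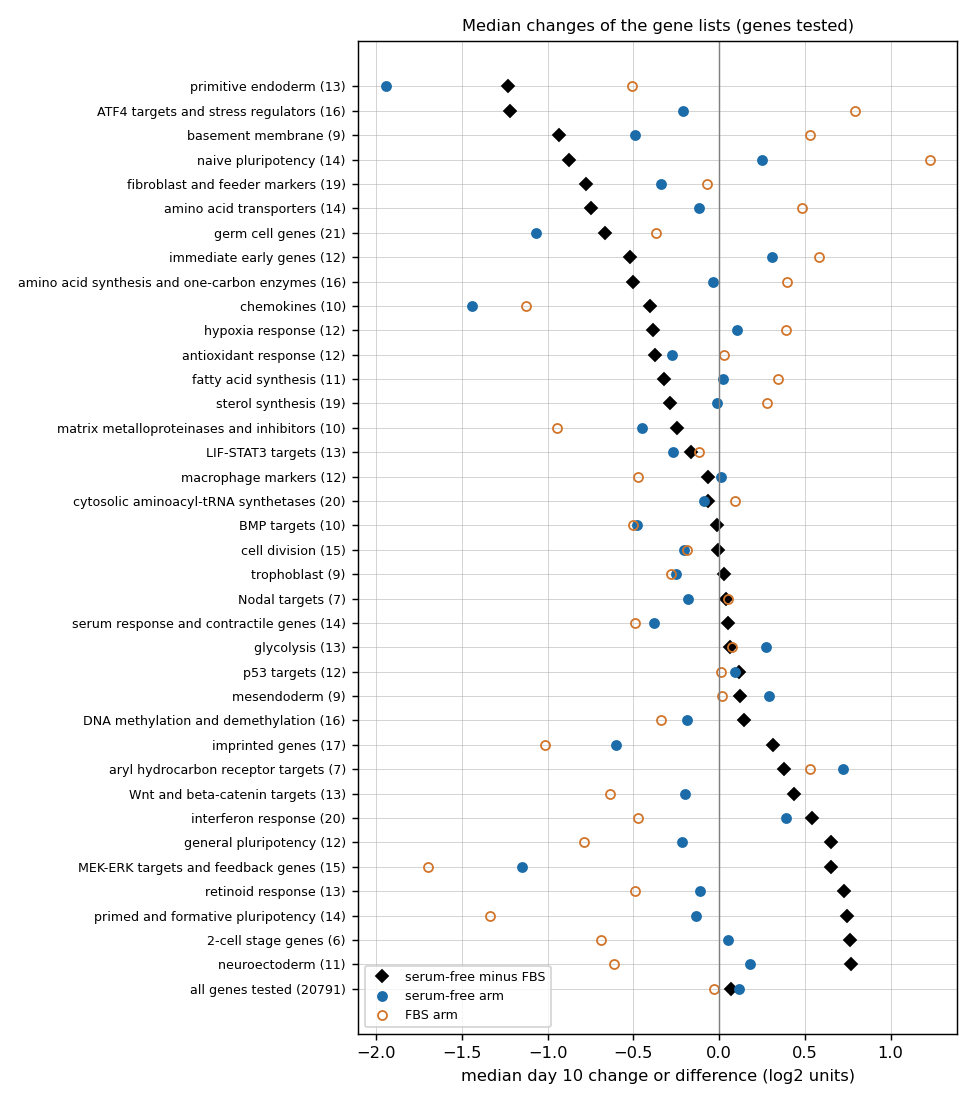
Median day 10 change of each of 37 gene lists in the serum-free arm (filled blue) and the FBS arm (open orange), and the median response difference (black diamonds), in log2 units on the x axis, with the number of genes tested in brackets. The lists run from primitive endoderm (-1.23) to neuroectoderm (0.77), with all genes tested (0.07) at the bottom.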

How the data were processed

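Total RNA of 12 cultures was hybridised to 12 one-colour Agilent arrays. Spot intensities were extracted by the authors with Feature Extraction 9.1.3.1, with local background subtraction and detrending within each array, per the file headers. The deposited table of the whole series holds each spot's background-subtracted signal as a ratio to the array median, as a comparison with the scanner values showed for all 43379 non-control spots (within 0.001 log2); the steps behind it are not given in the sources used here. Spot marks for background and saturation are those of the deposited files.

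Log2 processed signal minus the array's 75th percentile was fitted with limma 3.58.1 in R 4.3.3, on 12 arrays in 6 groups with the cell line as a block. The 4 day 3 arrays entered only through the shared spread. Of 26897 gene names, 20791 were tested: those whose brightest probe passed the background mark on 2 or more arrays, with Benjamini-Hochberg adjustment. Of 41174 probes, 22951 were named through RefSeq, 7527 through the authors' table and 10696 by the file's own name. Same-numbered replicates are the same cell line, so the pairing follows from the labels. The lines' deviations correlated between groups with a median r of 0.16 over 15 pairs of groups.

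Genes were named by rule: up to 12 per direction among called genes with the same sign in both lines, a symbol that is no clone, accession, Riken or Gm name and a measured or bounded difference, plus list extremes and Dazl, Dppa3, Nanog, Pou5f1 and the Tet genes. Members and the 37 lists (485 genes) were chosen with earlier results of these data known. Promoter sequences are RefSeq's (GRCm38.p6). Tested on simulated data for the response difference, the fit found 5% of 80 genes changed by 1 log2 unit, 52.6% of 57 changed by 2 and 77.8% of 63 changed by 4, with 3 false calls among 20776 genes. The simulated arrays had independent normal noise with each gene's mean and spread, and no slide or line effects. The false calls therefore do not speak for the real arrays, where slide and day are partly confounded. The number of arrays limits the precision. Alternatives covered normalization, background correction, filter, probes, blocks, variance and arrays left out.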

Additional observations from a re-analysis of the deposited data

Results flagged for a closer look

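The arms' day 10 changes differed by the test of the difference itself for 13 genes named above, which is why they are listed. Negative values mean a lower change in the serum-free arm than in the FBS arm. They were -3.71 for Serpinb1a, -3.57 for Pitx1, -3.48 for Serpinb1c, -3.13 for Padi4, -2.75 for S100a13, -2.60 for Hrh1, -2.37 for Qpct, -2.09 for Catsperz and -1.83 for As3mt. Positive values were 3.60 for Gpm6b and 4.92 for Rxrg, and fitted values of 3.80 for Figla and 3.80 for Wnt8a rest on dim groups: the Wnt8a difference is at least 8.86-fold, and Figla has no bound. Within slides the serum-free Stella-GFP change is set against the FBS Dazl-GFP change, on arrays that also picked these genes, so the values are no separate check. They were -3.63 for Serpinb1a, -3.89 for Pitx1, -3.66 for Serpinb1c, -3.17 for Padi4 and -2.47 for S100a13. Those of Hrh1, Qpct, Catsperz and As3mt were -2.48, -1.96, -2.21 and -2.00. Positive ones were 2.93 for Gpm6b, 4.50 for Rxrg and, resting on dim groups, 3.78 for Figla and 3.19 for Wnt8a.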

How the results depend on the processing

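The number of genes with a response difference past the threshold depended on most settings. Against 15, it was 67 with quantile normalization, 330 with normexp on repaired backgrounds, 210 in the authors' table, 231 among genes above background on all 8 arrays, 269 with a variance trend and 419 at an adjusted p under 0.10, a threshold chosen after seeing the data. It was 5 with no filter, 6 with all probes apart, 1 without the replicate block, and 0 with limma after normexp (1395 genes at an unadjusted p under 0.05), with the slide as a block (3385) and with only the 8 arrays (3621). Leaving out 1 array gave 0 to 48. Each of the 14 called genes with a name lost its call under 9 to 18 of its alternatives, and Serpinb1c turned to 0.19 under normexp, where 10 spots of the FBS Dazl-GFP day 0 array had local backgrounds over 10 times the array median.

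The serum-free count of 1113 became 731 with no filter, 584 without the replicate block, 244 with only the 8 arrays, 40 with the slide as a block and 0 with limma after normexp (1243 genes at an unadjusted p under 0.05). Leaving out 1 array gave 0 to 1421, with 0 without the Dazl-GFP serum-free day 0 array (2458), 52 without the Dazl-GFP serum-free day 10 array, 191 without the Stella-GFP serum-free day 0 array, 252 without the Stella-GFP serum-free day 10 array, 718 without either serum-free day 3 array and 716 without either FBS day 3 array. The FBS count of 2687 became 367 under normexp, 1303 with the slide as a block and 1471 with only the 8 arrays. Leaving out 1 array gave 668 to 2380, with 668 without the Dazl-GFP FBS day 10 array, 1216 without the Stella-GFP FBS day 10 array and 1745 without the Stella-GFP FBS day 0 array. The cause of these shifts was not tested.

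Direction turned for Pou5f1 (-0.19 under normexp, -0.0060 in the authors' table, -0.12 with the slide block, and -0.27 to 0.67 without single arrays), for Tet3 (0.70 under normexp, 0.17 with repaired backgrounds, 0.41 with the slide block, and -0.64 to 0.29 without single arrays, turning without the Dazl-GFP serum-free day 0 array) and for Dppa3 (-1.15 to 0.61 without single arrays, with 0.61 without the Dazl-GFP FBS day 10 array and 0.50 without the Stella-GFP serum-free day 0 array). By single lines, Pou5f1 was -0.76 in Dazl-GFP and Tet3 was 0.30 in Stella-GFP. Tet3 was 0.19 within slides. Of the 37 list medians, 18 turned in at least 1 setting. The other 19 kept their sign in all settings, among them ATF4 targets, naive, primed and MEK-ERK genes.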

Other observations

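Imprinted genes, of which the body normally uses 1 parental copy, had a median difference of 0.32 over 17 genes. In serum-free cells 5 fell (3.16% of all genes tested), and in FBS cells 8 fell (5.41%) and 1 rose (7.51%). The median difference was 0.09 in the authors' table and 0.03 to 0.50 without single arrays. Peg3, a zinc-finger gene, lay at -2.22 and -1.92 at day 10 and at -2.81 and -2.56 at day 0 in serum-free cells, against -3.29 and -2.74 at day 10 and -1.89 and -1.69 at day 0 in FBS cells, with a difference of 1.84 ± 0.28 (limma adjusted p = 0.0611). Plagl1, another zinc-finger gene, rose by 3.05 in FBS cells, with a serum-free change of 0.95 (difference -2.10 ± 0.45, limma adjusted p = 0.0998), but a second Plagl1 probe, above background on all 12 arrays, had the opposite sign, 0.37. Phlda2, Dlk1, Grb10, Snrpn and Cdkn1c fell in both arms.

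Targets of bone morphogenetic protein (BMP) signalling had a median difference of -0.01 over 10 genes, with extremes in opposite directions. Id4, an inhibitor of helix-loop-helix factors, rose by 2.98 in FBS cells, with a serum-free change of 0.96 (difference -2.02 ± 0.35, limma adjusted p = 0.0677), while Bmp4 itself had a difference of 1.47 ± 1.14. Neuroectoderm genes had a median difference of 0.77 over 11 genes (0.11 within slides). Tubb3, a neuronal tubulin, rose by 1.61 in FBS cells, with a serum-free change of 0.05 (difference -1.57 ± 0.27), and Sox1, an early neural factor, fell by 1.55 there, with a serum-free change of 0.18 (difference 1.73 ± 0.45, and 0.56 from a second Sox1 probe). Gata3, a trophoblast and T cell factor, was at least 8.27-fold higher at day 10 than at day 0 in FBS cells, with a serum-free change of 0.39.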
